A study of Bos indicus with 6 samples.

Results

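The cattle genes ENSBTAG00000016165 and ENSBTAG00000004275 are described here across the endometrium of 6 cows. They are 2 of the 24616 Ensembl cattle gene identifiers in the table. They were chosen by measured values of these same libraries: a mean above 300 normalised read counts over all 6, and clearly higher values in the SF-SCL libraries than in the LF-LCL libraries. Their difference between the regimens is therefore a description of how they were chosen. They were part of the fit across all genes, but nothing is read from its test of them. The table holds identifiers without names, and no gene name could be paired with either identifier from the sources used here. Their products, positions and sequences were not analysed here.

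All cows were healthy, nonlactating, multiparous Nelore, a Bos indicus beef breed, and the 3 cows of each regimen gave 1 library each. Estradiol benzoate was given to every animal on day -10, when a device that releases progesterone was placed. Every animal then had cloprostenol (a prostaglandin analogue that regresses the corpus luteum) when the device came out, and GnRH, which triggers ovulation, on day 0. LF-LCL (large follicle, large corpus luteum) cows had an additional cloprostenol dose on day -10 and lost the device 42 to 54 hours before GnRH. SF-SCL (small follicle, small corpus luteum) cows did not have that dose and lost the device 30 to 36 hours before GnRH. The endometrium was collected at slaughter on day 7. Of the 74 cows in the trial, 35 were treated as LF-LCL and 39 as SF-SCL. The sources used here do not say how the 6 sequenced cows were taken from them. Follicle size, corpus luteum size and hormone levels of these 6 cows were not analysed here, so SF-SCL and LF-LCL stand for the treatment a cow received.

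The preovulatory follicle secretes estradiol, and after ovulation it becomes the corpus luteum, which secretes progesterone. Estradiol and then progesterone act on the glands, surface epithelium and stroma of the endometrium through nuclear receptors and change which genes these cells transcribe. By the end of the first week after ovulation in cattle the embryo is in the uterus and depends on what the endometrium secretes.

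The libraries held 2896663 to 7811332 reads assigned to genes, and depths overlapped between the regimens: the deepest was LF-LCL replicate 1 and the shallowest SF-SCL replicate 3. A normalised read count is the number of reads of a gene divided by the size factor of its library, and 1 read was worth 0.562 to 1.55 of it. The 2 genes were covered by 28 to 1874 reads in a library. Endometrial cell types could not be checked by their markers because the identifiers carry no names. In bulk tissue fewer cells of a type and less RNA per cell cannot be told apart. Replicate numbers are names in accession order and tie no cow to another. The p-values of the fit set the difference between the regimens against the spread between libraries, 1 per cow.

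ENSBTAG00000016165 had the larger ratio between the regimens of the 2 genes, and it was of middling rank in LF-LCL and abundant in SF-SCL. The normalised read counts were 76.5, 23.3 and 54.9 in LF-LCL replicates 1 to 3 and 676, 657 and 362 in SF-SCL replicates 1 to 3. Every SF-SCL cow was above every LF-LCL cow, and within SF-SCL replicate 3 stood apart below the others. The lowest SF-SCL value was 4.73 times the highest LF-LCL value, and the highest SF-SCL value was 29.0 times the lowest LF-LCL value. LF-LCL had a mean of 51.6 ± 26.7 (SD, n = 3) and SF-SCL one of 565 ± 176 (SD, n = 3), a ratio of means of 11.0. On the log2(value + 1) scale the difference, SF-SCL minus LF-LCL, was 3.53. The SD on this scale was 0.86 among the LF-LCL cows and 0.51 among the SF-SCL cows. The fit gave a standard error of 0.42, for which a gene's variance is drawn towards a trend over all genes. That error is therefore no measure of the spread of this gene alone.

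The place of ENSBTAG00000016165 among all genes differed as well. Ordered from the most abundant gene down, it stood at rank 1551, 1599 and 3111 in SF-SCL replicates 1 to 3, within the top 11.8% to 24.8% of the genes with a read. In LF-LCL it stood at rank 7036, 8792 and 7614, which is 50.8% to 68.2% of the way down. These ranks need no scaling between libraries. As a share of all assigned reads the gene took 0.0155%, 0.0151% and 0.00808% in SF-SCL and 0.00174%, 0.000479% and 0.00121% in LF-LCL.

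ENSBTAG00000004275 was abundant in both regimens and differed less. The normalised read counts were 532, 551 and 633 in LF-LCL replicates 1 to 3 and 1304, 1363 and 1119 in SF-SCL replicates 1 to 3. The groups did not overlap, and here too SF-SCL replicate 3 was the lowest of its group, though close to the others. The lowest SF-SCL value was 1.77 times the highest LF-LCL value, and the highest SF-SCL value was 2.56 times the lowest LF-LCL value. LF-LCL had a mean of 572 ± 53.6 (SD, n = 3) and SF-SCL one of 1262 ± 127 (SD, n = 3), a ratio of means of 2.21. On the log2(value + 1) scale the difference was 1.14, with an SD of 0.13 among the LF-LCL cows and 0.15 among the SF-SCL cows. The standard error from the fit, drawn towards the trend in the same way, was 0.12. Its rank was 2135, 2159 and 1783 in LF-LCL, within the top 14.1% to 16.8% of genes with a read, and 616, 570 and 814 in SF-SCL, within the top 4.19% to 6.48%. It took 0.0121%, 0.0113% and 0.0140% of all assigned reads in LF-LCL and 0.0298%, 0.0313% and 0.0250% in SF-SCL.

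**Figure D1:**
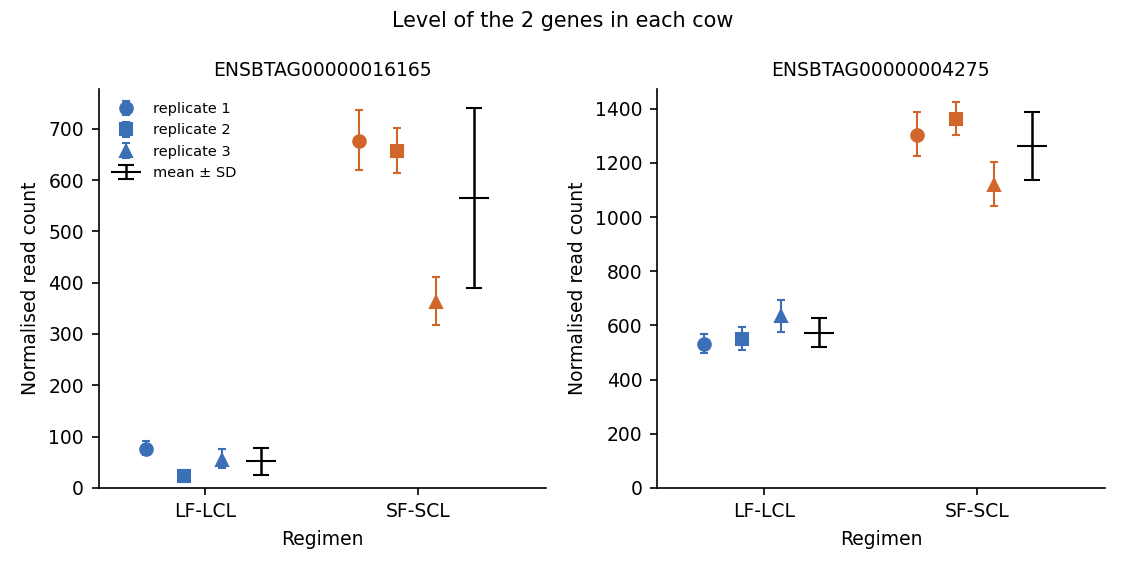
Normalised read count (vertical axis, from 0) of ENSBTAG00000016165 and ENSBTAG00000004275 in each cow of the LF-LCL and SF-SCL regimens (horizontal axis). Coloured points are libraries with their 95% exact Poisson counting interval, and black bars are group means ± SD of 3 cows. Both genes are higher in all 3 SF-SCL cows than in any LF-LCL cow, and SF-SCL replicate 3 is the lowest SF-SCL cow for both, at 362 and 1119.

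The difference in absolute amount ran in another order than the ratio. ENSBTAG00000004275 gained 689.7 normalised read counts from LF-LCL to SF-SCL, against 513 for ENSBTAG00000016165. Among the 3684 genes with a mean above 300, ranked by this gain, they were number 81 and number 124. The amounts of the 2 genes are not comparable per transcript, since gene length was not used here.

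The 2 genes differed in their spread between cows of one regimen. The choice of genes bears on this spread in part, since clearly separate groups limit it relative to the difference between them. For ENSBTAG00000016165 the coefficient of variation over 3 cows was 51.8% in LF-LCL and 31.2% in SF-SCL. Counting error alone would give 13.2% and 4.47% at its depth of 203 and 1657 reads per group, less than the spread between cows in each regimen. For ENSBTAG00000004275 the coefficient of variation was 9.36% in LF-LCL and 10.1% in SF-SCL, where counting error alone would give 4.10% and 3.04% from 2059 and 3600 reads. Over all 3684 genes with a mean above 300 the median was 10.9% in LF-LCL (quartiles 6.86% and 17.0%) and 9.35% in SF-SCL (quartiles 5.57% and 15.8%). ENSBTAG00000004275 lay close to these medians in both regimens. ENSBTAG00000016165 was more variable than 92.7% of these genes in SF-SCL. That spread came mostly from replicate 3, at 362 against 676 and 657 in replicates 1 and 2. In LF-LCL its own level was far below theirs, so its place among them is not given there. A coefficient of variation from 3 cows is itself imprecise, and these percentages are a description.

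**Figure D2:**
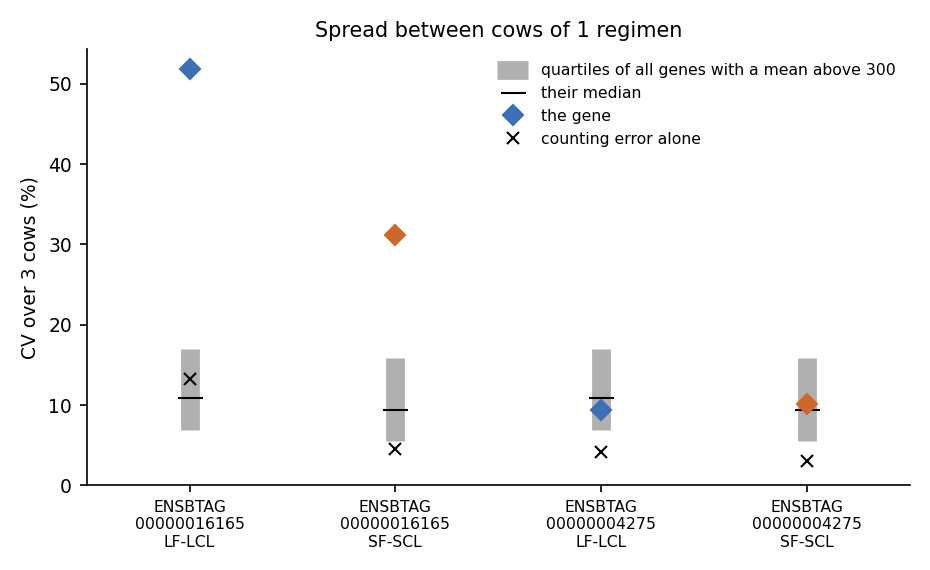
Coefficient of variation over the 3 cows of a regimen, in percent (vertical axis), for each gene in each regimen (horizontal axis; diamonds, LF-LCL in blue and SF-SCL in orange). Grey bars span the quartiles of all 3684 genes with a mean above 300, black dashes are their medians and crosses give the counting error alone. ENSBTAG00000016165 (51.8% in LF-LCL and 31.2% in SF-SCL) lies above the grey bar in SF-SCL, and ENSBTAG00000004275 lies inside it in both regimens (9.36% and 10.1%). The grey bar is no measure for ENSBTAG00000016165 in LF-LCL, where its level was far below that of these genes.

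The cows that were high or low for one gene were not always so for the other. In SF-SCL, replicate 3 was lowest for both genes. In LF-LCL, ENSBTAG00000016165 was lowest in replicate 2 and highest in replicate 1, whereas ENSBTAG00000004275 was lowest in replicate 1 and highest in replicate 3. The position of each library was then computed on the log2 scale between the LF-LCL mean (0) and the SF-SCL mean (1) of the remaining libraries. SF-SCL replicate 3 lay at 0.77 for ENSBTAG00000016165 and 0.79 for ENSBTAG00000004275. That every SF-SCL library lay nearer to the SF-SCL mean was made likely by the choice of genes, so nothing is read from it. The other SF-SCL libraries lay at 1.07 to 1.16 for the 2 genes. The LF-LCL libraries lay at -0.47 to 0.28 for ENSBTAG00000016165 and at -0.14 to 0.19 for ENSBTAG00000004275.

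Within a library the ratio of the 2 genes depends on no scaling. The level of ENSBTAG00000016165 was 14.4%, 4.23% and 8.67% of that of ENSBTAG00000004275 in LF-LCL replicates 1 to 3, and 51.9%, 48.2% and 32.3% in SF-SCL. Over the 3 cows this came to 9.09% ± 5.08 (SD, n = 3) in LF-LCL, against 44.1% ± 10.4 (SD, n = 3) for SF-SCL, and the groups did not overlap. The ratio rests on the same contrast that chose the genes and was not tested.

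The pool from which the 2 genes came was wider than 2 genes. Of the 3684 genes with a mean above 300, 390 (10.6%) had groups that did not overlap with SF-SCL higher, and 754 (20.5%) with LF-LCL higher. Over all 12535 tested genes the groups did not overlap for 11.0% with SF-SCL higher and for 11.8% with LF-LCL higher. Non-overlap in 3 against 3 cows was thus a common property, and that both genes showed it was fixed by their choice. A mean at least 2 times that of the other regimen was found for 37 of the 3684 genes (1.00%) with SF-SCL higher and for 75 (2.04%) with LF-LCL higher. Within the 390, 24 genes had an SF-SCL mean at least 2 times the LF-LCL mean. ENSBTAG00000016165 had the largest ratio among the 24 and ENSBTAG00000004275 was number 12, next to the median of 2.19 (quartiles 2.11 and 2.62). Only 2 of the 24 had a ratio of at least 4, ENSBTAG00000016165 with 11.0 and a gene with 4.46 (120.8 against 539 normalised read counts).

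**Figure D3:**
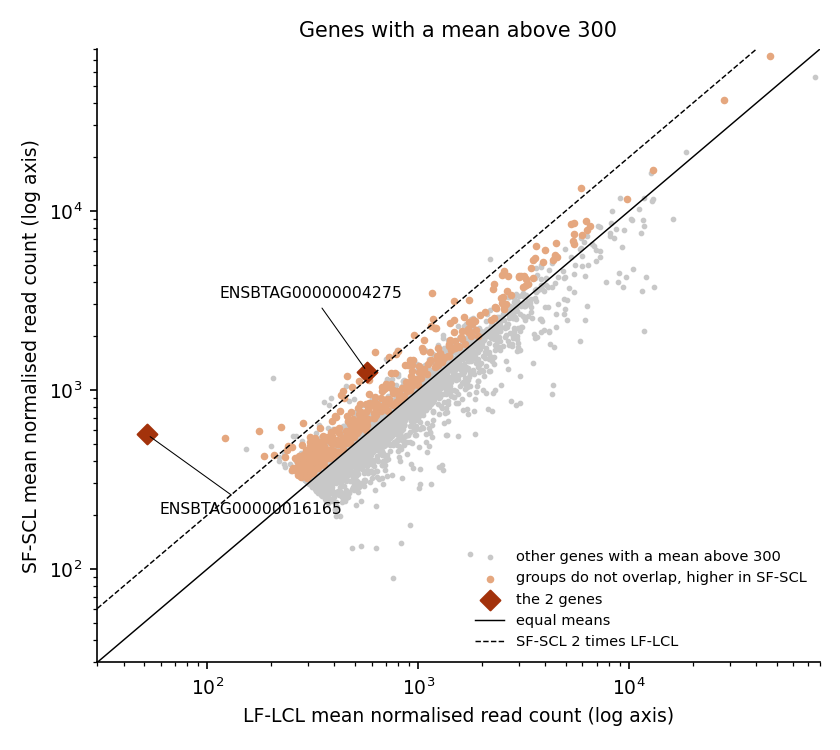
Mean normalised read count in SF-SCL (vertical log axis) against LF-LCL (horizontal log axis), each over 3 cows, for the 3684 genes with a mean above 300. Orange points are genes whose groups do not overlap with SF-SCL higher, dark diamonds are the 2 genes, and the lines mark equal means and an SF-SCL mean 2 times the LF-LCL mean. ENSBTAG00000016165 (51.6 against 565) lies apart from the other genes at the left, and ENSBTAG00000004275 (572 against 1262) lies just above the broken line.

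The fit across all 12535 tested genes (limma, adjusted p under 0.05) called 37 genes higher in SF-SCL (0.295%) and 84 higher in LF-LCL (0.670%), and both genes were among the 37. With a mean above 300 these were 16 (0.434%) and 59 (1.60%) of 3684 genes. This contrast chose the 2 genes, so nothing is read from their calls. By mean level they were number 8 (ENSBTAG00000004275) and number 16 (ENSBTAG00000016165) of the 37, and by ratio of means number 6 and number 1 of the 16. The number of calls varied when 1 library was left out, in fits of 3 cows against 2. Without SF-SCL replicate 3 limma called 101 of 12533 tested genes higher in SF-SCL (edgeR, 110), both genes among the 101. Without LF-LCL replicate 3 limma called 5 of 12553 higher in SF-SCL, ENSBTAG00000004275 among them and ENSBTAG00000016165 not, and edgeR called 0 higher. Nothing is read from the place of the 2 genes in these calls either, since the remaining libraries also chose them. Without any one of the other 4 libraries (replicates 1 and 2 of each regimen) both tools called 0 genes higher in SF-SCL. In these fits 642 to 939 of 12499 to 12571 tested genes were higher at an unadjusted limma p under 0.05. That threshold is also passed by some genes that do not differ. Over the 6 fits the ratio of means ranged from 8.60 (without LF-LCL replicate 2) to 14.5 (without LF-LCL replicate 1) for ENSBTAG00000016165 and from 2.12 (without SF-SCL replicate 2) to 2.33 (without SF-SCL replicate 3) for ENSBTAG00000004275.

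The 2 genes met the abundance limit in different ways. ENSBTAG00000004275 had a mean of 917 over the 6 libraries, exceeded 300 in each of them and stood at rank 1093 of all genes by that mean. ENSBTAG00000016165 had a mean of 308 (rank 3602) and passed only through SF-SCL. Its mean fell under 300 when any one SF-SCL library was left out (235, 239 and 297.6 without replicates 1 to 3). Among genes with non-overlapping groups and an SF-SCL mean at least 2 times the LF-LCL mean, the one just inside the limit beside it had a mean of 307.8 (186 against 430 normalised read counts). The one just outside had a mean of 293 (188 against 397). Of the 24 genes inside the limit, 16 had an LF-LCL mean above 300 by itself, as ENSBTAG00000004275 did.

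Likeness of pattern was measured as the root mean square difference, over the 6 libraries, between the log2(value + 1) profiles of 2 genes after each was centred on its own mean. Profiles were compared over 6590 genes with a mean of at least 100, so each gene had 6589 others. These profiles include the difference between the regimens that chose the 2 genes, so likeness over them is a description of it. ENSBTAG00000004275 had near neighbours. The closest gene differed from it by 0.10 log2 units and 60 genes lay within 0.5 times its own excursion of 0.58, a plain difference of about 2-fold with little spread inside each regimen. For ENSBTAG00000016165 the profile's own excursion was 1.86 log2 units, the closest gene differed from it by 0.74, and 3 genes lay within 0.5 times that excursion. The closest gene was less abundant (mean 144 over the 6 libraries, ratio of means 12.8), below the limit of 300. The 2 genes were 1.31 log2 units apart. ENSBTAG00000004275 was number 30 among the genes nearest to ENSBTAG00000016165, and ENSBTAG00000016165 was number 6496 among those nearest to ENSBTAG00000004275. Centred on the mean of each regimen instead, which removes that difference, the 2 genes were 0.54 log2 units apart. ENSBTAG00000004275 was then number 1172 among the genes nearest to ENSBTAG00000016165, and ENSBTAG00000016165 number 6354 among those nearest to ENSBTAG00000004275. With either centring the distance depends on the size of the excursions as well as on their shape. The excursions of the 2 genes differ in size, so these ranks do not show whether their shapes are alike. On that scale 6 genes lay within 0.5 times the excursion of ENSBTAG00000016165 (0.58) and 100 within 0.5 times that of ENSBTAG00000004275 (0.11). The identifiers of these neighbours carry no names and are not listed.

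The opposite pattern was looked for in the same way, by reversing the sign of the centred profile. The gene nearest to the reverse of ENSBTAG00000016165 was ENSBTAG00000017020, at a distance of 0.68 log2 units. It had 9564, 12463 and 13279 normalised read counts in LF-LCL replicates 1 to 3, against 1910, 1616 and 2897 in SF-SCL. LF-LCL had a mean of 11769 ± 1952 (SD, n = 3) and SF-SCL one of 2141 ± 671 (SD, n = 3). The ratio was 5.50 in favour of LF-LCL. The gene nearest to the reverse of ENSBTAG00000004275 was ENSBTAG00000001037, at a distance of 0.09 log2 units. Its values were 407, 405 and 402 in LF-LCL and 199, 176 and 215 in SF-SCL, a ratio of 2.06 in favour of LF-LCL. Both were found by their likeness to a chosen pattern, so their differences between the regimens are descriptions, and nothing is read from the test of them in the fit across all genes.

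**Figure D4:**
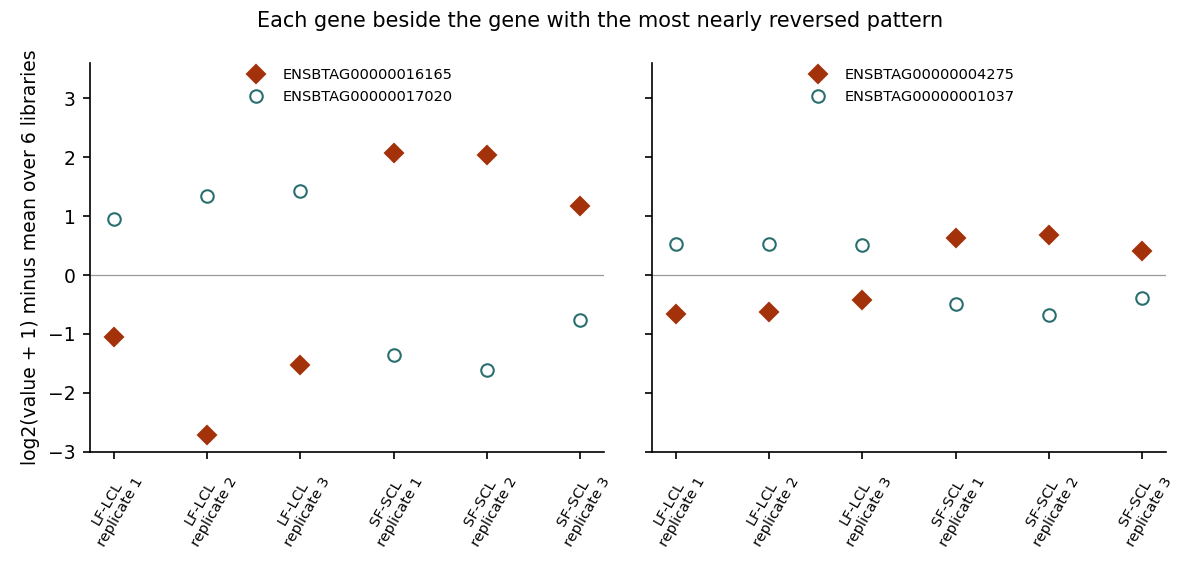
log2(value + 1) minus the gene's mean over the 6 libraries (vertical axis) in each library (horizontal axis), for each of the 2 genes (dark diamonds) and the gene with the most nearly reversed pattern (open circles). ENSBTAG00000017020 mirrors the sign but not the depth of the low in LF-LCL replicate 2 of ENSBTAG00000016165, and ENSBTAG00000001037 mirrors ENSBTAG00000004275 to within 0.09 log2 units (root mean square).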

How the data were processed

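RNA of endometrium from 6 cows was sequenced, with 1 library per cow. The submitters' processing notes list, with no role for any of them, DESeq 1.12.1, HTSeq 0.5.4p2, Bowtie2 2.1.0, CASAVA 1.8.2 and SAMtools 0.1.18. Build, annotation release and strand setting were not given in the sources used here, so reads shared with overlapping genes or near-identical copies cannot be told apart. The deposited values are a signal per gene, reads divided by 1 size factor per library. This was read from the values: 100% of those above 0 were whole multiples of the smallest in their column, to within 0.01 reads, and whole reads were recovered. Intervals cover counting error only. Size factors assume that most genes did not change.

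Genes with a mean of at least 1 (12535) were fitted with limma 3.58.1 under R 4.3.3, with a trended prior variance and Benjamini-Hochberg adjustment, on log2(value + 1). Fold changes on this scale are understated for low genes. Alternatives were pseudocounts of 0.1 and 5, no filter, TMM and upper quartile rescaling, edgeR 4.0.16 and DESeq2 1.42.0 on the recovered reads, and leaving out each library. The functions were tested on simulated data with 3 libraries per regimen. That check required recovery of the planted median log2 differences and set no limit on false calls. The members and comparisons were chosen with earlier results of these data known. Genes named were the 2 members and, for each, the gene with the most nearly reversed pattern. The gene table used here matched 0 of 24616 identifiers, so lists by symbol were not applied. The sources used here name no sequencing batch.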

Additional observations from a re-analysis of the deposited data

How the results depend on the processing

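The log2 difference of ENSBTAG00000016165 was 3.05 to 3.89 and that of ENSBTAG00000004275 was 1.08 to 1.22 over 13 alternatives, with the same direction in all 13, which the choice of the genes on these libraries fixes. The count of 37 calls higher in SF-SCL moved to 23 with a pseudocount of 0.1, 24 with edgeR and 275 with DESeq2, and that of 84 lower in SF-SCL to 411 with DESeq2. The cause was not tested. With any one library left out, limma called 0 to 101 genes higher in SF-SCL and 0 to 269 lower, both largest without SF-SCL replicate 3. Without LF-LCL replicate 2 or SF-SCL replicate 2 limma and edgeR called 0 genes in either direction. At an unadjusted limma p under 0.05, 926 of 12571 and 886 of 12500 tested genes were lower in SF-SCL (939 and 694 higher). The 390 abundant genes with non-overlapping groups became 373 with TMM and 521 with upper quartile rescaling of all 6 libraries. Leaving out 1 library gave 460 to 675, 675 without LF-LCL replicate 2 and 607 without SF-SCL replicate 3, counts that compare fewer pairs of cows. The upper quartile setting for the counts of calls and the unfiltered fit for the 2 genes were chosen after seeing the data. No paired analysis was possible because the labels give no number that is shared between the regimens. Depth limits ENSBTAG00000016165 most in LF-LCL, where it rested on 28 to 136 reads per library.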
